A study of Mus musculus with 8 samples.

Results

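The 10 genes described here encode receptors for the neurotransmitter acetylcholine. They are 6 subunits of nicotinic receptors (*Chrna3*, *Chrna4*, *Chrna5*, *Chrna7*, *Chrnb2* and *Chrnb4*) and 4 muscarinic receptors (*Chrm1*, *Chrm2*, *Chrm3* and *Chrm4*). They were chosen as a family by name and matched by gene symbol, and all 10 were found among the 38553 genes of the deposited table. Nicotinic receptors are ion channels assembled from several subunits and opened by acetylcholine. Receptors that combine the *Chrna4* and *Chrnb2* subunits, and receptors made of the *Chrna7* subunit, are the main kinds in cerebral cortex, whereas the *Chrna3* and *Chrnb4* subunits are best known from autonomic ganglia and the medial habenula. Muscarinic receptors act through G proteins. *Chrm1*, *Chrm3* and *Chrm5* couple to Gq and phospholipase C, and *Chrm2* and *Chrm4* couple to Gi and Go, which inhibit adenylyl cyclase. The medial entorhinal cortex (MEC), which holds neurons that encode position and direction, receives acetylcholine from axons of the basal forebrain.

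RNA-Seq of 4 libraries from dorsal and 4 from ventral MEC was carried out to find genes whose expression differs along the dorsoventral axis. Both regions came from the same untreated male mice of the C57BL/6JolaHsd strain, 13 in all and aged 8 weeks, as parts of an acute sagittal slice 400 µm thick. Tissue of 3 or 4 mice was pooled for each library, and replicate spread is therefore spread among pools. Values are FPKM, fragment numbers normalized for transcript length and library depth. Levels of different genes are set side by side below, and such comparisons rest on the gene model that gave each length. The libraries held between 10780902 and 15359782 fragments assigned to genes. The columns of the table are headed by a letter and a number, and for 4 of the 8 libraries the letter names the other region than the one used here. The regions used are those of the study's own comparison table: its dorsal FPKM is the average of columns D1, V1, D2 and V2, and its ventral FPKM that of D3, V3, D4 and V4, within 0.1% for 38538 genes. Libraries are named below by their headers, always in that order. Every dorsoventral difference below rests on this assignment: of the 25 receptor, pathway, neighbouring and marker genes that limma called, 0 were called with the regions that the headers name, where their lowest adjusted p was 0.942.

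Dorsal and ventral levels were compared with limma over the 13674 genes that averaged 1 FPKM or more and had enough alignments. A gene was called D>V (higher dorsally) or V>D (higher ventrally) when its p, adjusted over all genes by Benjamini-Hochberg, was under 0.05 and its mean FPKM differed by at least 20%. Of the 10 receptor genes 8 were tested, and *Chrnb4* and *Chrna5* were too low. *Chrna3* was called D>V, 1 of 8 tested, where 2.15% of all genes tested were called in that direction. No receptor gene tested was called V>D, against 1.45% of all genes. At an unadjusted p under 0.05 the limma fit counted 5 of the 8, and 2191 of all 13674 genes tested. The median log2(V/D), the log2 ratio of ventral to dorsal mean FPKM, was 0.075 over the 8 receptor genes tested and −0.0050 over all genes tested, where the middle 50% of genes lay between −0.12 and 0.11. *Chrna3* reached the filter only through its dorsal libraries, and *Chrnb4* and *Chrna5* did not, so the median describes these 8 genes and not the family.

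**Figure D1:**
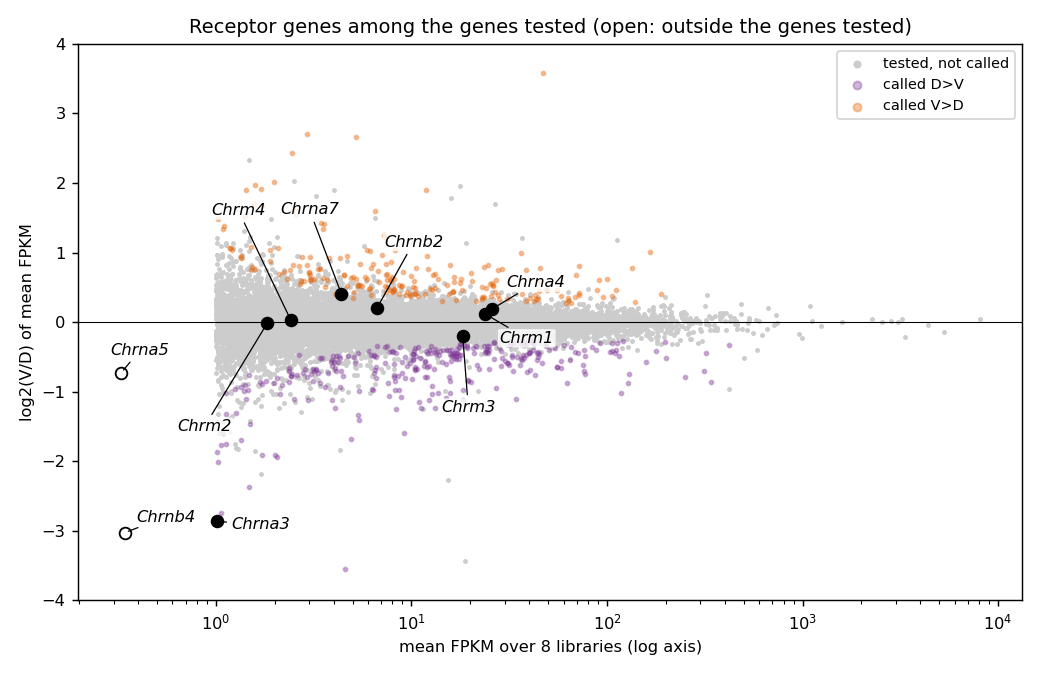
Mean FPKM over the 8 libraries (log axis) against log2(V/D) for each gene tested, with the receptor genes as large black points and the 2 outside the genes tested as open points. The 18 genes tested that lay beyond the plotted range or were listed at 0 throughout 1 region are not drawn. *Chrna3* at −2.87 and *Chrnb4* at −3.03 lie far below zero, and the other tested receptor genes lie between −0.20 and 0.41.

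Of the 10 genes, those with the widest ratio between the regions, *Chrna3*, *Chrnb4* and *Chrna5*, lie next to each other in a cluster of 67.9 kb on chromosome 9 (GRCm38, 54980880 to 55048779). In GENCODE M21, *Chrna5* runs from 54980880 to 55007779 on the plus strand, *Chrna3* from 55010111 to 55026562 on the minus strand and *Chrnb4* from 55028154 to 55048779 on the minus strand, and none of their exons overlaps that of another gene. The 250 bases before each annotated start are given here because these genes were the receptor genes with dorsal libraries all above the ventral ones. They and the starts are from RefSeq (GRCm38.p6), whose starts can differ from those of GENCODE, 5′ to 3′ on the gene's strand, and capitals mark GC boxes, GGGCGG or its reverse complement CCGCCC. The windows are chr9:55026563-55026812 (minus strand) for *Chrna3*, chr9:55048545-55048794 (minus strand) for *Chrnb4*, and chr9:54980630-54980879 and chr9:54981238-54981487 (plus strand) for the first and the second start of *Chrna5*.
Chrna3: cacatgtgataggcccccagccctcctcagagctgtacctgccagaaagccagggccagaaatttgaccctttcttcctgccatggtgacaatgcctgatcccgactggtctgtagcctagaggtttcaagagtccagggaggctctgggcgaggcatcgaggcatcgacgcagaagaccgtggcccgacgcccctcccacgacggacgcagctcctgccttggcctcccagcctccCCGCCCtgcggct
Chrnb4: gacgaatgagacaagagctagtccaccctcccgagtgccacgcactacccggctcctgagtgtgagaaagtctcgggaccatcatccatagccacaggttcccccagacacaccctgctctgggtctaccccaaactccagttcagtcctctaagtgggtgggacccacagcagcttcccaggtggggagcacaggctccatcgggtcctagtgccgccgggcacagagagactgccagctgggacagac
Chrna5 first start: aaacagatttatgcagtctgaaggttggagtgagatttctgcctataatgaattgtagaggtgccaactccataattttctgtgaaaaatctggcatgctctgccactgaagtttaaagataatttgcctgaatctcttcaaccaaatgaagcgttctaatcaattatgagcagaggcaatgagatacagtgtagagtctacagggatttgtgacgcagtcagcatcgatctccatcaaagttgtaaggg
Chrna5 second start: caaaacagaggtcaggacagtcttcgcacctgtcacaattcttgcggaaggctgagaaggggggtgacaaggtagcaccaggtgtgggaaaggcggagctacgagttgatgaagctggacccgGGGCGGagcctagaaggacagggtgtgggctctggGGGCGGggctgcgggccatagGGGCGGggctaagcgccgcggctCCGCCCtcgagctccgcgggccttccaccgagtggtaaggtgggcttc
The window of *Chrna3* held 1 GC box and 13 CpG dinucleotides, at 63.2% G and C. That of *Chrnb4* held 0 GC boxes and 8 CpG, at 61.2% G and C. The windows of *Chrna5* differed between its starts: the first held 0 GC boxes at 40.0% G and C, and the second held 4 GC boxes and 17 CpG at 65.2%. Of the 32851 RefSeq windows of this length, 32.7% held a GC box on either strand, and their median G and C content was 52.4%. These matches describe the letters of the windows only.

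*Chrna3* (ENSMUSG00000032303), a subunit that forms the acetylcholine binding site together with a beta subunit, had an FPKM of 1.72, 1.61, 1.84 and 1.99 in the dorsal libraries and of 0.126, 0.276, 0.349 and 0.229 in the ventral ones. Every dorsal library lay above every ventral one, and the highest ventral value stayed well under the lowest dorsal value. The mean was 1.79 ± 0.161 dorsally and 0.245 ± 0.0936 ventrally (SD, n = 4 each), 7.31-fold higher dorsally. In the limma fit on log2(FPKM + 1) the fold change was −1.17 (SE 0.11, 95% interval −1.41 to −0.92, adjusted p = 0.000558), a scale that understates the change of low genes. Its mean over the 8 libraries, 1.02 FPKM, was just above the filter and came from the dorsal libraries. Over all libraries 386 fragments were assigned to it. In bulk tissue, fewer cells that express a gene and less RNA per cell cannot be told apart. The summed FPKM of 6 oligodendrocyte markers was also higher dorsally (808 to 1074 against 447 to 586), and its part in this difference was not tested.

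The call of *Chrna3* depended on the region given to each library. In the 4 libraries for which header and comparison table give one region, D1 and D2 were at 1.72 and 1.84 FPKM and V3 and V4 at 0.276 and 0.229. The limma fold change was there −1.15 with an adjusted p of 0.256, in a fit of 2 against 2 libraries in which 0 of all genes were called and 1240 were at an unadjusted p under 0.05. With the regions that the headers name, the fold change was 0.015 (limma, adjusted p = 0.999). Without D1, V1, D2 or V2 the mean of *Chrna3* fell under the filter and it was not tested. With the tested genes held fixed it was called without each of the 8 libraries in turn, at a log2(V/D) between −3.09 and −2.65 and a limma adjusted p between 0.00189 and 0.00389.

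*Chrnb4* (ENSMUSG00000035200), a beta subunit that assembles with *Chrna3*, had an FPKM of 0.420, 0.634, 0.754 and 0.638 in the dorsal libraries. In the ventral libraries it was listed at 0 in D3 and had 0.0948, 0.0691 and 0.136 in V3, D4 and V4. The regions did not overlap, and D1 was the lowest dorsal library. The means were 0.612 ± 0.139 and 0.0750 ± 0.0571 FPKM (SD, n = 4 each), 8.16-fold higher dorsally, on 147 fragments over all libraries. Since the regions did not overlap, an exact permutation test could only give its smallest two-sided p for 4 against 4 libraries, 0.0286, and adds nothing to that observation. In a limma fit that kept low genes and genes with too few alignments, on log2(FPKM + 0.1) and chosen after seeing the data, *Chrnb4* was D>V with a fold change of −2.07 (SE 0.34, adjusted p = 0.0169). That fit called 1.36% of its 19488 genes D>V, and *Chrnb4* passed its filter of 0.1 FPKM through the dorsal libraries, so the call describes the gene and is no independent support. Leaving out 1 library in turn kept the call in 5 of 8 fits and lost it without V1 (adjusted p = 0.0650), D2 (0.0584) or V2 (0.0536). In the 4 libraries named alike by both sources, D1 and D2 (0.420 and 0.754) again lay above V3 and V4 (0.0948 and 0.136). With the regions of the headers the means would be 0.311 FPKM over the columns headed D and 0.376 over those headed V. That is a much smaller difference of opposite sign, between groups that each mix the regions used.

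*Chrna5* (ENSMUSG00000035594), an accessory subunit that joins receptors containing *Chrna4* or *Chrna3*, had the lowest mean of the 10 genes over the 8 libraries, although in ventral MEC alone *Chrnb4* was lower. Its FPKM was 0.514, 0.338, 0.389 and 0.398 dorsally and 0.227, 0.195, 0.245 and 0.322 ventrally. The regions did not overlap, but V1 (0.338) and V4 (0.322) were nearly equal. The means were 0.410 ± 0.0743 and 0.247 ± 0.0538 FPKM (SD, n = 4 each), a ratio of 1.66, on 108 fragments over all libraries. With the regions of the headers the means would be 0.344 (D) and 0.313 (V). In the fit that kept low genes *Chrna5* was not called (fold change −0.56, limma adjusted p = 0.367), nor without any 1 library (0.298 to 0.519).

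**Figure D2:**
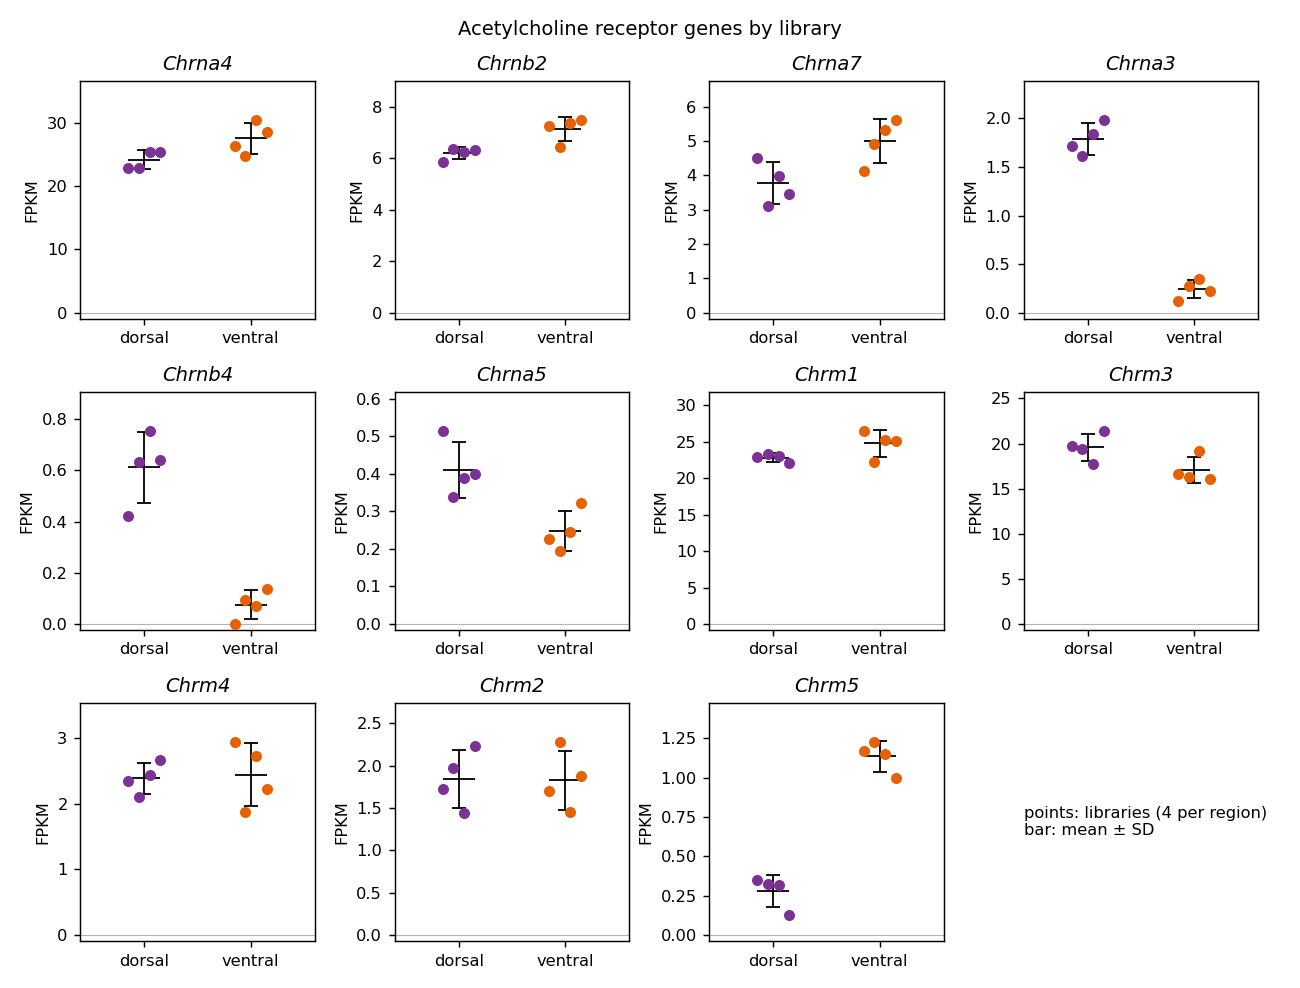
FPKM of the receptor genes in each library (vertical axis, linear from zero and scaled per gene), dorsal in purple and ventral in orange, with mean ± SD in black. The dorsal points of *Chrna3*, *Chrnb4* and *Chrna5* all lie above the ventral points, those of *Chrnb2* and *Chrm5* all lie below, and the regions overlap in the other genes. Of all genes tested, 11.1% did not overlap between the regions. That share does not cover the low genes *Chrnb4*, *Chrna5* and *Chrm5*, which were outside the genes tested.

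The genes tested around the cluster had smaller ratios. Within 450 kb of the start of *Chrna3*, a window chosen after seeing the data, 10 other genes were tested. Their log2(V/D) lay between −0.63 (*Nrg4*) and 0.22 (*Agphd1*) with a median of −0.087. At an unadjusted limma p under 0.05 were 2 of these 10. *Ube2q2*, a ubiquitin-conjugating enzyme and the adjacent tested gene on the *Chrnb4* side, was D>V with a log2(V/D) of −0.35 (limma adjusted p = 0.0280). Its start lies 122.3 kb from that of *Chrna3*. The other 9 tested genes were not called, and 2.15% of all genes tested were D>V. The adjacent tested gene on the *Chrna5* side, the proteasome subunit *Psma4*, had a log2(V/D) of −0.0099. Among low genes of the window that were not tested, *Crabp1* had a log2(V/D) of −1.25 at a mean of 0.0344 FPKM, and *AI118078* −0.38 at 0.520. Of the 8 neighbours listed for the cluster, 3 lie in this window (*Ireb2*, *Agphd1* and *Psma4*). The other 5 lie between 34.9 and 35.2 Mb away on the mouse chromosome (*Adamts7*, *Morf4l1*, *Tbc1d2b*, *Ctsh* and *Rasgrf1*). By limma, 0 of the 7 tested were called and 0 were at an unadjusted p under 0.05, against 2191 of all 13674 genes tested.

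**Figure D3:**
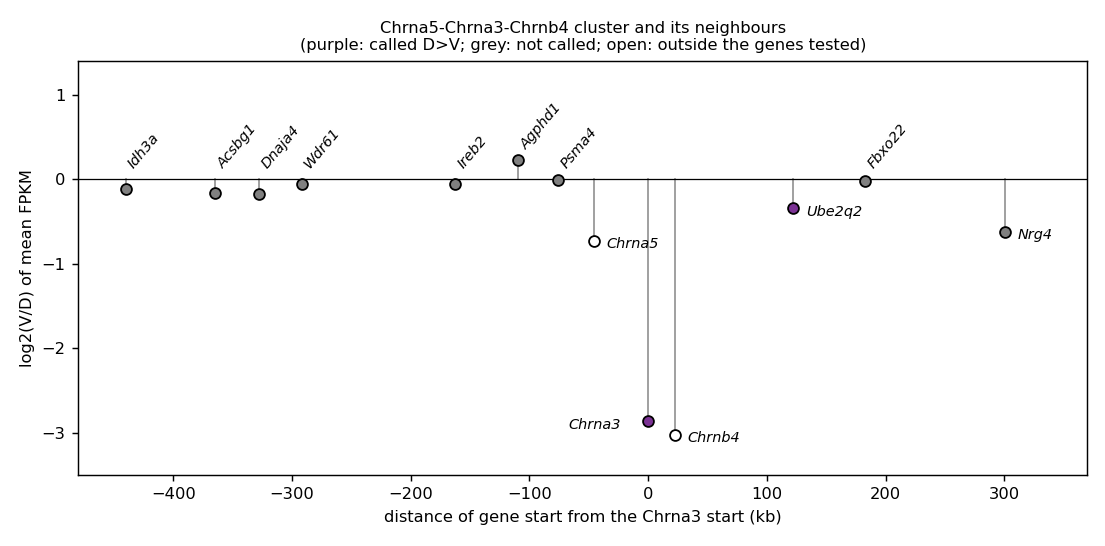
Log2(V/D) of mean FPKM (vertical axis) against the distance of each gene's start from that of *Chrna3* in kb (horizontal axis), for genes tested within 450 kb and the cluster itself. *Chrna3* and *Chrnb4* lie at −2.87 and −3.03, *Chrna5* at −0.73, and the 10 other genes between −0.63 and 0.22.

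The subunits typical of cortex had higher means ventrally, by differences that did not pass the test. *Chrna4* (chromosome 2, 181018380 to 181043546), the most abundant of the 10 genes and above 81.5% of the genes tested, had an FPKM of 22.9, 22.8, 25.4 and 25.4 dorsally and of 26.3, 24.8, 30.5 and 28.5 ventrally. The regions overlapped, since V3 lay below D2 and V2. The means were 24.2 ± 1.48 and 27.5 ± 2.50 FPKM (SD, n = 4 each), and the limma fold change of 0.18 (95% interval 0.0077 to 0.35) had an adjusted p of 0.289.

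*Chrnb2* (chromosome 3, 89746195 to 89764632), the beta subunit that assembles with *Chrna4*, had an FPKM of 5.87, 6.37, 6.25 and 6.33 dorsally and of 7.27, 6.43, 7.35 and 7.50 ventrally. Every ventral library lay above every dorsal one, V3 only slightly. The means were 6.20 ± 0.226 and 7.14 ± 0.482 FPKM (SD, n = 4 each), and the limma fold change of 0.17 (95% interval 0.017 to 0.33) had an adjusted p of 0.258. *Chrnb2* and *Chrna3* were the 2 of 8 tested receptor genes whose libraries did not overlap between regions, against 11.1% of all genes tested. An exon of *Adar* lies opposite one of *Chrnb2*, and whether the counting used strand is not given in the sources used here. The ratio of *Chrna4* to *Chrnb2* FPKM lay between 3.58 and 4.07 dorsally and between 3.63 and 4.14 ventrally, so it overlapped between the regions.

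*Chrna7* (chromosome 7, 63098692 to 63212569), which forms receptors with high calcium permeability, had an FPKM of 4.51, 3.10, 3.99 and 3.47 dorsally and of 4.12, 4.92, 5.33 and 5.62 ventrally. Only D1 among the dorsal libraries reached the ventral range, where it lay above D3. The means were 3.77 ± 0.615 and 4.999 ± 0.652 FPKM (SD, n = 4 each). Its log2(V/D) of 0.41 was the highest of the 8 receptor genes tested, and the limma fold change of 0.33 (SE 0.12, 95% interval 0.077 to 0.59) had an adjusted p of 0.170.

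Among the muscarinic genes, *Chrm1* (chromosome 19, 8663789 to 8683587), the main Gq-coupled receptor of cortical pyramidal cells, was the most abundant. Its FPKM was 22.9, 23.4, 23.1 and 22.1 dorsally and 26.5, 22.2, 25.2 and 25.1 ventrally. Of the ventral libraries V3 lay within the dorsal range and the other 3 above it. The means were 22.8 ± 0.562 and 24.8 ± 1.82 FPKM (SD, n = 4 each), and the difference was not called (fold change 0.11, 95% interval −0.036 to 0.26, limma adjusted p = 0.474).

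*Chrm3* (chromosome 13, 9875486 to 10360847), also Gq-coupled, had a lower mean ventrally. Its FPKM was 19.7, 19.4, 17.8 and 21.4 dorsally and 16.6, 16.3, 19.2 and 16.1 ventrally. The regions overlapped through D4, the highest ventral library, and D2, the lowest dorsal one. The means were 19.6 ± 1.49 and 17.0 ± 1.44 FPKM (SD, n = 4 each), and the limma fold change of −0.19 (95% interval −0.37 to −0.018) had an adjusted p of 0.260. The locus that the comparison table gives for *Chrm3* spans 1770 bases, far less than the gene in GENCODE M21, so its level relative to other genes rests on that short model.

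The Gi-coupled receptors had nearly equal means in both regions. *Chrm2* (chromosome 6, 36388084 to 36528414) had an FPKM of 1.72, 1.97, 1.45 and 2.24 dorsally and of 1.70, 2.28, 1.45 and 1.88 ventrally. The means were 1.84 ± 0.339 and 1.83 ± 0.348 FPKM (SD, n = 4 each), with a limma fold change of −0.0079 (95% interval −0.29 to 0.27, adjusted p = 0.986). *Chrm4* (chromosome 2, 91927249 to 91928688) had an FPKM of 2.34, 2.10, 2.44 and 2.66 dorsally and of 2.94, 1.88, 2.72 and 2.23 ventrally. Its ventral libraries held both the lowest and the highest of the 8 values. The means were 2.39 ± 0.233 and 2.44 ± 0.480 FPKM (SD, n = 4 each), with a limma fold change of 0.015 (95% interval −0.24 to 0.27, adjusted p = 0.974). These intervals reach a size of 0.29 on the log2(FPKM + 1) scale, so smaller differences could not be told from none. Single exons of *Chrm1* and *Chrm2* lie opposite those of *Gm22820* and *9330158H04Rik*.

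**Figure D4:**
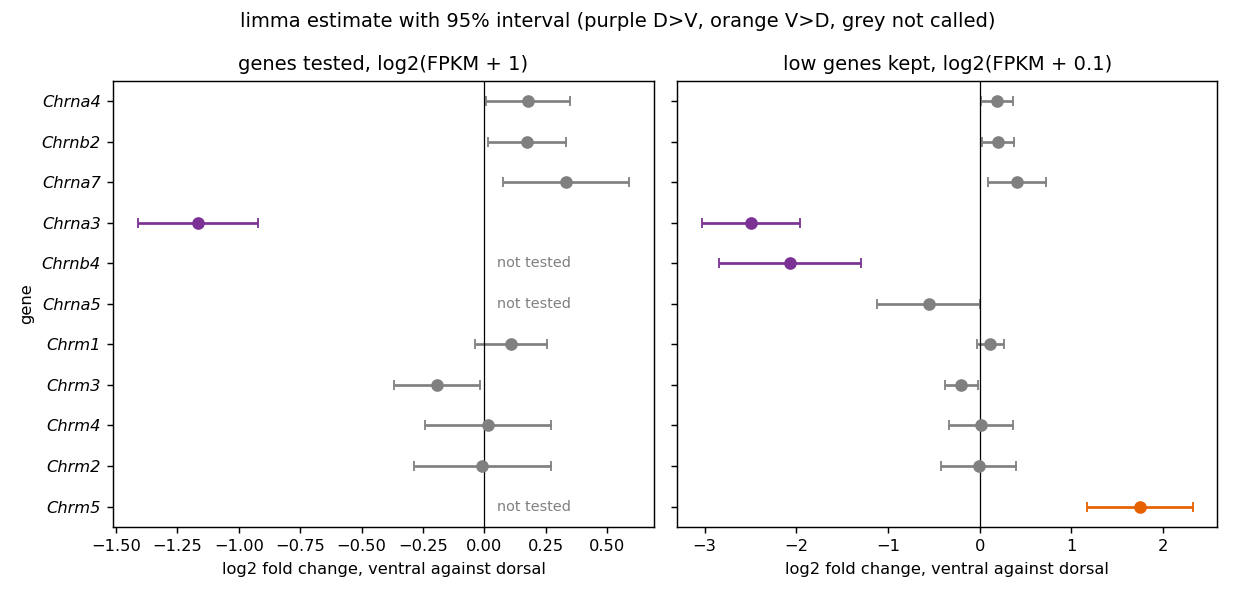
Limma log2 fold change of ventral against dorsal (horizontal axis) with its 95% interval for each receptor gene, on log2(FPKM + 1) over the genes tested (left) and on log2(FPKM + 0.1) with low genes kept (right). Purple marks genes called D>V (*Chrna3* in both fits, *Chrnb4* on the right), orange V>D (*Chrm5* on the right) and grey genes not called.

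Ordered by mean FPKM over the 8 libraries, the genes were *Chrna4* (25.8), *Chrm1* (23.8), *Chrm3* (18.3), *Chrnb2* (6.67), *Chrna7* (4.38), *Chrm4* (2.41), *Chrm2* (1.84), *Chrna3* (1.02), *Chrnb4* (0.343) and *Chrna5* (0.329). The ranges over libraries overlapped between *Chrna4* and *Chrm1*, between *Chrm4* and *Chrm2*, between *Chrm2* and *Chrna3*, and among the 3 genes of the cluster. The other neighbours in this order did not overlap. In dorsal MEC alone *Chrna3* (1.61 to 1.99) lay in the range of *Chrm2* (1.45 to 2.24), and in ventral MEC (0.126 to 0.349) its range overlapped that of *Chrna5* (0.195 to 0.322).

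As shares of the summed FPKM of the 6 nicotinic subunits, the cluster made up 7.38% to 7.90% in the dorsal libraries and 0.926% to 1.62% in the ventral ones, without overlap. *Chrna4* made up 63.7% to 66.5% dorsally and 67.4% to 69.5% ventrally, also without overlap. The shares of *Chrnb2* (16.2% to 18.3% and 16.8% to 19.1%) and *Chrna7* (8.90% to 12.5% and 10.8% to 13.4%) overlapped. These shares sum to a fixed total, so a lower share of the cluster raises those of the other subunits. The summed nicotinic FPKM was 34.9 to 38.7 dorsally and 36.7 to 43.8 ventrally and overlapped.

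Of the summed FPKM of the muscarinic genes with *Chrm5* included, *Chrm3* made up 39.4% to 44.2% dorsally and 33.9% to 38.5% ventrally, without overlap. *Chrm1* made up 45.5% to 51.2% and 50.6% to 54.3%. *Chrm5* made up 0.266% to 0.748% dorsally and 2.16% to 2.80% ventrally, without overlap. The share of the Gq-coupled receptors together was 89.9% to 91.4% dorsally and 90.5% to 91.6% ventrally, nearly the same range. The summed muscarinic FPKM (45.0 to 48.5 and 43.9 to 49.7) overlapped too. These shares and sums also rest on the short gene model of *Chrm3*.

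**Figure D5:**
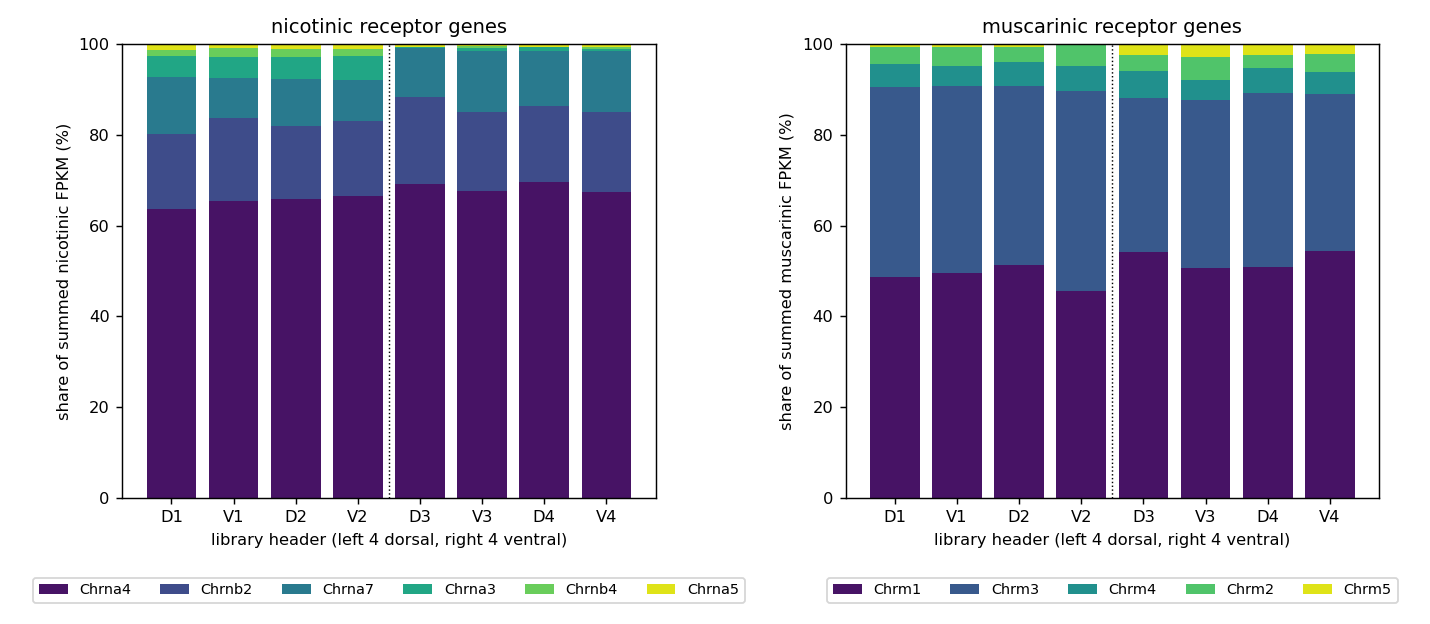
Share of the summed FPKM (vertical axis, percent) that each gene makes up in each library (horizontal axis), for the nicotinic genes (left) and the muscarinic genes with *Chrm5* (right). The cluster genes fill 7.38% to 7.90% of the dorsal and 0.926% to 1.62% of the ventral nicotinic bars, and *Chrm5* fills more of each ventral than of any dorsal muscarinic bar.

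The remaining 11 acetylcholine receptor genes were outside the genes tested. Among them *Chrm5* (chromosome 2, 112479171 to 112480769), the Gq-coupled receptor best known from dopamine neurons, had the clearest pattern, opposite to that of the cluster. Its FPKM was 0.351, 0.322, 0.316 and 0.129 dorsally and 1.17, 1.23, 1.15 and 0.998 ventrally, so that the lowest ventral library lay far above the highest dorsal one. The means were 0.280 ± 0.102 and 1.14 ± 0.0980 FPKM (SD, n = 4 each), 4.06-fold higher ventrally, on 148 fragments over all libraries. In the fit that kept low genes, where 0.903% of genes were V>D, its fold change was 1.75 (SE 0.26, limma adjusted p = 0.00931), and it was called without each of the 8 libraries in turn (0.0114 to 0.0444). In D1 and D2 (0.351 and 0.316) against V3 and V4 (1.23 and 0.998) the regions were also apart. *Chrm5* passed the filter of that fit through the ventral libraries as well as the dorsal ones. With the regions of the headers its means would be 0.747 FPKM (D) and 0.669 (V), a much smaller difference of opposite sign.

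The muscle-type subunits were low, with mean FPKM of 0.611 and 0.474 (dorsal and ventral) for *Chrna1*, 0.619 and 0.699 for *Chrnb1*, and 0.507 and 0.396 for *Chrne*. *Chrnb3* was at 0.190 and 0.188 and *Chrna2* at 0.110 and 0.0755. *Chrna6*, *Chrna10* and *Chrng* did not exceed 0.0961 in any library, and *Chrna9* and *Chrnd* were listed at 0 in all 8. All of these overlapped between the regions.

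Of 8 genes for the synthesis, transport and breakdown of acetylcholine, 7 were matched and 3 tested. Of these 1 was D>V, where 2.15% of all genes tested were. *Slc44a1*, a choline transporter, was D>V (28.9 ± 1.04 and 23.8 ± 1.03 FPKM, SD, n = 4 each, log2(V/D) −0.28, limma adjusted p = 0.0292). The acetylcholine-degrading enzymes *Ache* (6.20 and 6.71 FPKM, adjusted p = 0.707) and *Bche* (4.81 and 6.53, adjusted p = 0.154) were not called. Genes that mark cholinergic neurons were at or near 0: the transcription factors *Isl1* and *Lhx8* were listed at 0 in all libraries, the synthesizing enzyme *Chat* did not exceed 0.0401 FPKM, and the choline transporter *Slc5a7* lay between 0.0903 and 0.225. The summed FPKM of these markers was 0.163 to 0.225 dorsally and 0.0903 to 0.221 ventrally.

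Of a list of 10 genes drawn up for chaperones and Ly6-type modulators of nicotinic receptors 9 were tested. Of these 1 was D>V and 1 V>D, where 2.15% and 1.45% of all genes were. *Lynx1*, a membrane-anchored protein that binds nicotinic receptors and reduces their response, was at 80.4 to 107 FPKM dorsally and at 51.5 to 69.8 ventrally (log2(V/D) −0.70, limma adjusted p = 0.00712). *Lypd1*, a related protein, was at 16.6 to 24.7 FPKM dorsally and 26.5 to 33.6 ventrally (log2(V/D) 0.56, limma adjusted p = 0.0346). Both were without overlap and lay on opposite sides. The receptor chaperones *Ric3* (31.9 and 30.7 FPKM) and *Tmem35* (20.8 and 24.2) were not called, nor was *Ly6e* (45.6 and 41.2). *Nptn* (224 and 201), also not called, is counted in the list but is not a Ly6-type protein.

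Downstream of the muscarinic receptors, 10 of 12 G proteins and phospholipases were tested and 0 called by limma. At an unadjusted p under 0.05 there was 1, against 2191 of all 13674 genes tested. The phospholipase *Plcb1* had 99.4 to 124 FPKM dorsally and 77.3 to 94.6 ventrally, without overlap but with a limma adjusted p of 0.126. The G protein subunits *Gnaq* (75.2 and 69.0 FPKM), *Gnao1* (360 and 393) and *Gnai1* (107 and 116) had adjusted p-values of 0.386, 0.810 and 0.513. Of the 6 channels that muscarinic receptors regulate, all tested, the M-current subunits *Kcnq3* (27.4 ± 1.03 and 20.6 ± 1.86 FPKM, log2(V/D) −0.41, limma adjusted p = 0.0138) and *Kcnq5* (13.8 ± 0.623 and 10.1 ± 0.942 FPKM, −0.45, adjusted p = 0.0144) were D>V (SD, n = 4 each). Over all genes tested, 2.15% were D>V. The G protein-gated channels *Kcnj3* (53.8 and 51.4 FPKM), *Kcnj9* (18.3 and 20.5) and *Kcnj6* (11.2 and 10.9) were not called.

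Markers of several cell types differed between the regions. Over all genes tested, 2.15% were D>V and 1.45% V>D. All 6 oligodendrocyte markers were D>V, with the sums given above for *Chrna3* and a median log2(V/D) of −0.86. Of the parvalbumin interneuron markers 1 of 4 was D>V (*Pvalb*, −1.24) and 1 V>D (*Tac1*, 1.03), with sums of 72.6 to 76.5 and 61.3 to 66.9. Of 3 somatostatin interneuron markers tested *Npy* was D>V and *Sst* and *Elfn1* were V>D, with sums of 101 to 175 and 183 to 277. Of 6 genes listed as VIP and layer 1 interneuron markers *Lamp5* was D>V and *Calb2* V>D, with overlapping sums (492 to 579 and 460 to 611). Most of these sums was *Cck* (454 and 460 FPKM), and the study's paper describes *Reln*, also listed, as marking excitatory layer II cells. The sums therefore do not stand for these interneurons. Of 5 layer VI and subplate markers tested *Syt6* was V>D (sums 37.9 to 48.8 and 47.3 to 62.2), and of 4 leptomeningeal markers *Dcn* (29.7 to 38.04 and 55.8 to 68.5). Of 6 tested markers of subiculum, CA1 and dentate gyrus, *Man1a* was D>V and *Fn1* and *Fibcd1* were V>D (sums 77.5 to 83.1 and 73.2 to 79.1).

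By limma, 0 of 5 astrocyte (sums 154 to 164 and 171 to 185), 0 of 5 microglia (38.5 to 41.7 and 43.1 to 47.6), 0 of 5 endothelial and mural (41.3 to 58.1 and 37.4 to 47.2), 0 of 1 tested choroid plexus and 0 of 5 neuronal markers were called, and the neuronal sums overlapped (3305 to 4531 dorsally and 2839 to 3825 ventrally). At an unadjusted p under 0.05 these were 3, 2, 1, 0 and 2 markers in that order, and 2191 of all 13674 genes tested. Choroid plexus sums were 0.862 to 1.43 and 1.11 to 1.38 FPKM. The oligodendrocyte and parvalbumin interneuron sums were higher dorsally. The somatostatin interneuron, leptomeningeal, astrocyte and microglia sums were higher ventrally. The parvalbumin and somatostatin lists each held genes called in both directions, so their sums do not stand for every marker. Each sum is also weighted to its most abundant genes, such as *Sst* (109 and 220 FPKM). The microglia markers *Aif1* (log2(V/D) −0.16) and *Tmem119* (−0.013) and the astrocyte marker *Aldh1l1* (−0.020) had lower means ventrally, and the other markers of these 2 cell types had higher means ventrally. The part of these cell types in the receptor differences was not tested.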

How the data were processed

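RNA from dorsal and ventral MEC gave 8 libraries, amplified with the Ovation RNA-Seq System V2 from 120 ng of RNA with integrity numbers between 7.1 and 8.5. Per the labels and the study's methods, the authors processed reads with CASAVA 1.8, aligned paired-end fragments with TopHat2 2.0.8 to GRCm38 with the Ensembl 73 annotation, and obtained the deposited FPKM with Cuffdiff 2, normalized for transcript length, for mapped fragments and between libraries. Whether strand was used is not given in the sources used here. The deposited estimated counts of fragments are those the authors obtained from the same Cuffdiff run. Only their sums over libraries and the range of library totals were used, since their library names match no sample label, and no count test was run. The authors' own fold changes, p-values and q-values were left aside, as were 3 columns that hold per-sample values.

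The assignment of libraries to regions rests on the match of mean FPKM with the comparison table and not on the headers or labels. The pool of mice behind each library is unknown here, and no pairing was made. P-values measure the spread between pools.

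The 13674 genes that averaged 1 FPKM or more and had enough alignments entered a fit of log2(FPKM + 1) by limma 3.58.1 (R 4.3.3) with a trend of variance on mean. Calls required a p under 0.05 after Benjamini-Hochberg adjustment over all genes tested, and a log2(V/D) beyond 0.263. *Chrnb4* and *Chrna5* were compared by exact permutation of the 70 arrangements of libraries. Python 3.11.15, NumPy 2.4.6, pandas 2.3.3, SciPy 1.17.1 and matplotlib 3.10.9 were used, and the fit was tested on simulated data. The simulation used log2(FPKM + 1) and changed only genes at levels above that of *Chrna3*, so it does not cover the receptor genes called. Positions come from GENCODE M21 (GRCm38). The receptor genes, the gene lists and the markers were chosen with earlier results of these data known, and support nothing beyond their description. Named genes are all receptor genes, the neighbours of the cluster and, of each other list, the genes called and up to 4 others with the highest mean FPKM. Some of the genes this rule takes are not reported here. Alternatives covered the constant, the filters, the threshold on the ratio, the scaling, the variance model, sample weights, the regions of the headers and leaving out each library. The fit that kept low genes, the fits with the tested genes held fixed and the window around the cluster were added after seeing the data.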

Additional observations from a re-analysis of the deposited data

Results flagged for a closer look

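In 32 sets of 4 libraries, 1 for each receptor gene and region with any value of at least 0.1 FPKM, 2 libraries stood far from the other 3 by Dixon's ratio, where chance gives about 1 in 20 sets. *Chrm5* in dorsal library V2 was at 0.129 FPKM, where the other dorsal libraries were at 0.316 to 0.351 (gap over range 0.839). Without V2 the V>D call of *Chrm5* held (limma adjusted p = 0.0114 in the fit that kept low genes). *Chrna1*, a muscle-type subunit, was at 0.511 FPKM in dorsal library V1 and at 0.639 to 0.649 in the other dorsal libraries (gap over range 0.926). Why these libraries differ was not tested.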

How the results depend on the processing

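No paired analysis was possible because the pool of mice behind each library is not given. Over all genes 294 were D>V and 198 V>D. Rescaling each library to one total FPKM gave 195 D>V and 201 V>D, 49.2% D>V of all calls in place of 59.8%, and moved the median fold change from −0.0058 to 0.037. The regions of the headers gave 1 and 0 (721 genes at an unadjusted p under 0.05), and the 4 libraries named alike by both sources 0 and 0 (1240). Leaving out 1 library gave 157 to 341 D>V and 91 to 191 V>D. The count of 1 receptor gene D>V fell to 0 at a mean FPKM of at least 5, where *Chrna3* is not tested, with the headers' regions and in the 4 libraries, and was 0 to 1 when a library was left out, 0 without D1, V1, D2 or V2. With low genes kept on log2(FPKM + 0.1), *Chrna3* was D>V at a fold change of −2.49 (limma adjusted p = 0.00139).

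With the headers' regions the fold changes reversed to 0.015 (*Chrna3*), −0.046 (*Chrna4*), −0.078 (*Chrna7*), −0.0035 (*Chrnb2*), −0.071 (*Chrm1*), 0.26 (*Chrm2*) and −0.17 (*Chrm4*). That of *Chrm2*, near 0, also reversed with rescaling (0.026), quantile normalization (0.0017) and the 4 libraries (0.25), and that of *Chrm4* with the 4 libraries (−0.15). Leaving out 1 library gave −0.082 to 0.058 for *Chrm2* and −0.054 to 0.097 for *Chrm4*. Each header letter takes in dorsal and ventral libraries in equal number, so a difference between the regions used cancels with the headers' regions. *Chrm2* and *Chrm4* differed little between the regions used, and their fold changes with the headers' regions were larger. *Chrm2* lay at 1.45 to 1.72 FPKM in the columns headed D and at 1.88 to 2.28 in those headed V, without overlap but not called (limma adjusted p = 0.924). The cause of these and the other reversals was not tested. The low depth limits *Chrnb4*, *Chrna5* and *Chrm5*, with 108 to 148 fragments each over all libraries.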
